A study of Mus musculus with 30 samples.

Results

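The 6 libraries described here were made from MPP4 cells of the bone marrow of WTiMOS mice aged 3 months, 3 labelled T1 and 3 labelled T2. They were taken by their titles and are 6 of the 30 libraries of the series. The series is a bulk RNA-seq study of flow-sorted mouse haematopoietic progenitors, in 5 tables that each hold a T1 and a T2 group of 3 libraries: MPP3 from KOiMOS mice at 3 months, and MPP3 and MPP4 from WTiMOS mice at 3 and at 24 months. For MPP4 its design text asks what Bcl11a does within these cells, and the genotype labels read WTiMOS_T1 and WTiMOS_T2. The labels do not say what T1 and T2 stand for, how the iMOS allele is built or driven, what the groups share beyond the WTiMOS label, or whether replicates came from separate mice, so p-values measure only how these libraries vary, which may be technical variation. Of 24421 genes listed, 10919 were tested: those outside the X and Y chromosomes with a value of at least 1 TPM (transcripts per 1000000) in at least 3 of the 6 libraries. Levels are given as rescaled TPM, which is TPM divided by 1 factor per library so that the typical gene is level across libraries. Differences are T2 minus T1 on log2(rescaled TPM + 1), with a standard error (SE), 3 libraries a group and p-values adjusted over all genes tested. A gene was called at an adjusted p under 0.05.

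MPP4 cells are multipotent progenitors that carry the Flt3 receptor and are known for their lymphoid output. Bcl11a is a zinc finger transcription factor that is needed for B lymphocyte development and silences embryonic globin genes in red cell precursors. It binds short motifs such as TGACCA and acts largely by recruiting repressor complexes, among them NuRD, which pairs a chromatin remodeller with histone deacetylases.

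T1 and T2 libraries differed in more than the genes of interest. The Y-linked genes Eif2s3y, Ddx3y, Kdm5d and Uty were listed at 0 in the 3 T1 libraries and summed to 106, 111 and 115 deposited TPM in T2, while Xist, the RNA of the inactive X, stood at 104, 105 and 81.9 in T1 and 21.8, 22.6 and 24.1 in T2. Sex-linked RNA separated T1 from T2 in every library, and label and sex-linked RNA cannot be told apart. The share of deposited TPM in transcripts under 1000 bases was 27.97 to 29.2% in T1 and 44.2 to 44.6% in T2, and the 200 most abundant genes held 37.2 to 37.8% and 50.3 to 50.7%. Rescaling divided T1 by 1.30 to 1.36 and T2 by 0.718 to 0.796, a log2 gap of 0.84. Without it the median of all genes tested fell to log2 -0.74, so a rise of less than about 0.84 for an abundant gene is no rise in the deposited TPM. Read depth is unknown, because the files hold TPM and no counts.

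The markers of the gate were present, but Flt3 alone did not set these libraries apart from MPP3. Flt3, the cytokine receptor that defines MPP4, stood at 129, 138 and 137 rescaled TPM in T1 and 153, 153 and 157 in T2 (log2 0.20, SE 0.08, adjusted p = 0.0565). Kit, the stem cell factor receptor, was at 57.5 to 67.8 in T1 and 59.0 to 66.7 in T2, and Cd34 at 293 to 338 and 255 to 283. None of these 3 was called on rescaled values, but in deposited TPM Flt3, Kit and Cd34 were lower in T2, by log2 -0.63, -0.81 and -1.02 (adjusted p = 2.47e-06, 1.02e-05 and 3.38e-08). Slamf1, which MPP4 lack, was under 1 TPM in all 6 libraries. Mean deposited TPM of Flt3 was 179.7 in T1 and 115.7 in T2, against 87.56 and 146.4 in MPP3 of WTiMOS mice at the same age and 116.2 and 68.88 in MPP3 of KOiMOS mice, values normalised in separate tables. Ly6a, which encodes Sca-1, rose from 542, 536 and 521 to 1077, 1131 and 1094 (log2 1.05, SE 0.06, adjusted p = 1.09e-07). Cd48 rose from 975 to 1008 to 1870 to 2140 (log2 1.02), and both genes were also higher in the deposited TPM, by log2 0.21 and 0.19. After removal of a trend on transcript length and GC content, the rises of Ly6a and Cd48 were log2 0.24 and 0.18. Mean deposited TPM of Cd48 was 1325 in T1 and 1507 in T2, against 304.5 and 305.8 in 3-month WTiMOS MPP3 and 429.7 and 217.1 in KOiMOS MPP3. Ly6a was at 712.3 and 824.0, against 135.3 and 90.93 in that WTiMOS MPP3 and 137.3 and 64.71 in KOiMOS MPP3. In 24-month MPP3, Cd48 was at 2079 and 1332 and Ly6a at 1023 and 566.2.

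Bcl11a itself (chromosome 11, 24078056 to 24174123, plus strand, GRCm38) was higher in T2. Its 3 T1 libraries held 31.9, 29.1 and 27.4 rescaled TPM and its T2 libraries 83.4, 89.4 and 87.9. The groups did not overlap and the mean was 2.89 times as high (log2 1.53, SE 0.10, adjusted p = 1.77e-07). The rise was log2 0.71 in deposited TPM and 1.51 with the GC and length trend removed. Over all genes tested, 2770 (25.4%) were called higher in T2 and 2916 (26.7%) lower, so 52.1% were called in either direction and any list is to be read against these shares. The shares were 8.61%, 73% and 81.6% in deposited TPM and 24.3%, 24.1% and 48.4% with the GC and length trend removed. T1 and T2 libraries did not overlap for 59.9% of genes. Among 27 tested partners of Bcl11a and repressor complex genes, Bcl11a itself left out, 7 were called higher and 12 lower, with a median of log2 -0.25 against -0.04 for all genes. In deposited TPM these counts were 0 and 25, and with the GC and length trend removed 9 and 11 (median log2 -0.13). Chd4, the NuRD remodeller, fell from 23.8, 20.1 and 19.8 to 7.89, 6.20 and 6.79 (log2 -1.48, SE 0.13, adjusted p = 2.57e-06). Mta2, a NuRD scaffold subunit, fell from 22.1, 20.1 and 19.6 to 7.69, 6.65 and 6.40 (log2 -1.45), and the corepressor Ncor1 fell from 74.99 to 88.2 to 33.9 to 37.0 (log2 -1.17). Each of these 3 was lower in all 3 T2 libraries than in any T1 library, while the 7 genes called higher are not named here.

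Of 21 genes reported to respond to Bcl11a, 15 were tested, of which 5 were called higher and 5 lower. The shares over all genes tested were 25.4% and 26.7%, so the list as a whole was not far from them. In deposited TPM the counts were 1 and 9, and with the GC and length trend removed 5 and 4. Cdkn1a, the cell cycle inhibitor p21, fell from 130, 128 and 127 to 39.8, 41.3 and 42.6 (log2 -1.62, SE 0.09, adjusted p = 4.16e-08). Il7r, the receptor for the lymphoid cytokine interleukin 7, stood at 9.74, 9.42 and 9.98 in T1 and 17.9, 20.1 and 16.6 in T2 (log2 0.84, adjusted p = 0.000107), but its deposited TPM differed by only log2 0.06 (adjusted p = 0.667). Id2, an inhibitor of E proteins, rose from 26.6, 32.0 and 30.1 to 55.1, 70.9 and 68.2 (log2 1.10). Irf8, a factor of monocyte and dendritic cell fate, fell from 21.0, 21.0 and 23.3 to 8.86, 7.57 and 6.22 (log2 -1.42). The embryonic globins Hbb-bh1 and Hba-x, also in this list, were listed at 0 in all 6 libraries. A further embryonic globin, Hbb-y, was under 1 TPM in all 6 but not at 0 throughout.

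Promoter windows, from 250 bases before to 50 after each RefSeq start (GRCm38.p6), were searched for TGACCA on either strand. The motif was in any window of 12.7% of genes called higher, 13.8% of those called lower and 12.8% of all genes tested with an entry (8201 genes). Called genes thus held it about as often as all genes tested. Counted per window rather than per gene, 13.6% of all 32851 windows of the table held it. Of the 30 genes with the largest changes, 23 had an entry and 6 held the motif: Vpreb3, Sap25, Cd209a, Trappc3, F13a1 and Tifab. The 4 windows below, 2 of genes that rose and 2 of genes that fell, show where it lies, with the motif or its complement in capitals. They are chr10:75948050-75948349 (plus), chr5:137641223-137641522 (plus), chr8:3748935-3749234 (minus) and chr4:126262155-126262454 (plus). A match in letters says nothing on whether the factor binds there, and the Bcl11a window itself held none.
Vpreb3: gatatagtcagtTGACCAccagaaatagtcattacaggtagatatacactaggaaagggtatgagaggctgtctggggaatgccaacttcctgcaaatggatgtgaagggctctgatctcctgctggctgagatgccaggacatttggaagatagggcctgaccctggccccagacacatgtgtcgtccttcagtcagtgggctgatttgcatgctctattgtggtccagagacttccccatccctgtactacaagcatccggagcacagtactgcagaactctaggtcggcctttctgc
Sap25: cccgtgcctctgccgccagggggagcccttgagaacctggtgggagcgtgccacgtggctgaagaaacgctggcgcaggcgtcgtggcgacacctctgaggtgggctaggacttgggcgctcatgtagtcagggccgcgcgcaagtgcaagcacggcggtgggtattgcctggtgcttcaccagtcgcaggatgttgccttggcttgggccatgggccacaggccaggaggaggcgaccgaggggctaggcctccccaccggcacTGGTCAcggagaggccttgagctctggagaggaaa
Cd209a: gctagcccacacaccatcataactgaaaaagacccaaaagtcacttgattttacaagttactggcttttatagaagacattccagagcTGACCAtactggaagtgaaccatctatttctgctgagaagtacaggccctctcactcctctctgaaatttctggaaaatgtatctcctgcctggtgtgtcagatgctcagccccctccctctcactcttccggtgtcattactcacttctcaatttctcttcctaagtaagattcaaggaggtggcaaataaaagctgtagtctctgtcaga
Trappc3: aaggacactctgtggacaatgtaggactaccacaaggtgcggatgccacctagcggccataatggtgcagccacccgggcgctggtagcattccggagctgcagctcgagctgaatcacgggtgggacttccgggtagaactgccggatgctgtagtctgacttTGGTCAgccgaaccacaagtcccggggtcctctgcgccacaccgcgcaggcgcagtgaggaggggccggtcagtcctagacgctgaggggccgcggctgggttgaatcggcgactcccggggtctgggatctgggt

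The 15 largest rises included 4 globin genes, 3 genes of secreted protease inhibitors and Vpreb3. At 2-fold or more, 998 genes (9.14%) were called higher and 559 (5.12%) lower. Adult globin genes come in near-identical copies among which reads can be split, so their sums are given: alpha globin (Hba-a1 and Hba-a2) was at 18.5, 14.2 and 13.2 rescaled TPM in T1 and 242, 274 and 279 in T2, a difference of log2 4.04. Taken alone, Hba-a1 was at 0.017, 7.55 and 0.0055 in T1 and gave the largest change of any gene (log2 6.69, SE 1.02, adjusted p = 0.00643), a value that rests on that split. Beta globin over 4 genes was at 24.2, 24.7 and 23.2 in T1 and 251, 318 and 320 in T2 (log2 3.56). The sums were not tested. The groups do not overlap in either. Vpreb3, a partner of the pre-B cell receptor (chromosome 10), rose from 0.196, 0.796 and 0.722 to 25.8, 30.8 and 21.8 (log2 4.12, SE 0.19, adjusted p = 1.55e-08).

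Of 5 tested WAP family genes, which encode secreted protease inhibitors and were grouped after their values were seen, 4 rose and Wfdc21 was not called (log2 -0.17, adjusted p = 0.383). With the GC and length trend removed Wfdc21 was lower (log2 -1.33). Wfdc17 stood at 763, 753 and 736 in T1 and 6586, 7522 and 7035 in T2, which made it 1 of the 6 genes that gained most deposited TPM (log2 3.23, SE 0.06, adjusted p = 1.85e-10). Its near copy Wfdc18 rose from 93.8, 71.8 and 73.7 to 570, 637 and 611 (log2 2.92), and Slpi from 5.58, 6.89 and 7.67 to 68.0, 86.5 and 71.9 (log2 3.31). Tyrobp, a signalling adaptor of myeloid and natural killer receptors, rose from 112, 105 and 104 to 562, 584 and 603 (log2 2.43). The histone gene Hist1h4d rose from 48.8, 58.0 and 54.3 to 288, 356 and 336 (log2 2.58), and Ccdc167 from 6.89 to 9.52 to 47.1 to 55.4 (log2 2.44). Sap25, a subunit of the Sin3 repressor complex, was under 0.50 in T1 and at 30.9, 10.7 and 10.3 in T2 (log2 3.54), with the first T2 library apart from the others. Clu, which encodes the secreted chaperone clusterin, Fxyd1, a small regulator of the sodium pump, and Slc16a11, a monocarboxylate transporter, rose by log2 2.66, 2.62 and 2.75. Of the 15 genes, 14 had a transcript length, 9 of these were under 1000 bases, and 14 of 14 were still called higher with the GC and length trend removed.

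The 15 largest falls were in genes of varied function. Mrgpra2a and Mrgpra2b, near-identical genes for receptors of the Mas family, summed to 40.1, 37.7 and 39.4 in T1 and 1.16, 1.40 and 2.42 in T2 (log2 -3.94). Cd209a, a C-type lectin of monocyte-derived dendritic cells, stood at 12.01, 10.34 and 10.97 in T1 and was listed at 0 in all 3 T2 libraries (adjusted p = 1.01e-08). Hp, the haemoglobin scavenger haptoglobin, fell from 12.3, 12.1 and 13.8 to 0, 0.583 and 1.34 (log2 -3.15, SE 0.26, adjusted p = 1.79e-06). F13a1, coagulation factor XIII of monocytes, fell from 6.31, 8.39 and 7.94 to 0.275, 0.340 and 0.215 (log2 -2.74), and Tifab from 6.97, 6.36 and 8.30 to 1.05, 0.591 and 0.341 (log2 -2.32). Arpc1b, a subunit of the actin-nucleating Arp2/3 complex, fell from 185, 207 and 258 to 21.8, 36.8 and 29.1 (log2 -2.86, SE 0.18, adjusted p = 1.63e-07). Sae1, a subunit of the SUMO-activating enzyme, fell from 156, 171 and 195 to 33.7, 33.0 and 33.6 (log2 -2.34).

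Also among the 15 were Trappc3 and Tmed9, both of traffic between the endoplasmic reticulum and the Golgi, which fell by log2 3.16 and 2.69. The transcriptional cofactor gene Vgll4 fell by log2 2.75, the splicing repressor Ptbp1 by 2.51, the LIM protein gene Csrp1 by 2.48 and the repressor Rest by 2.42. All 15 were longer than 1000 bases, with a median of 1875, and 15 of 15 were still called lower with the GC and length trend removed. Trat1, a T cell receptor adaptor, stood at 12.7, 10.1 and 12.1 in T1 and 0, 0.322 and 5.54 in T2 (log2 -2.62, adjusted p = 0.0289). It was lost from the calls without any 1 of 5 of the libraries (adjusted p 0.0752 to 0.109), the exception being T2 replicate 3, which stood apart.

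**Figure D1:**
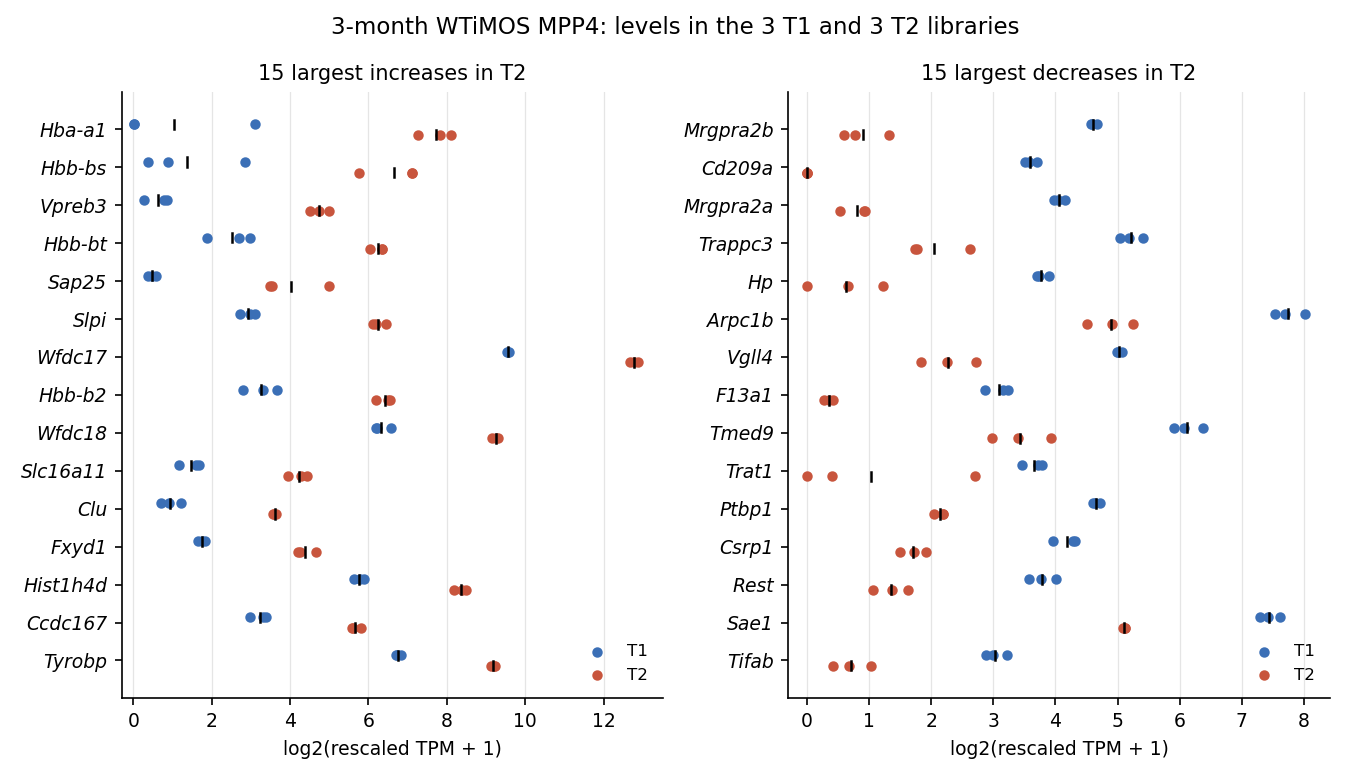
Levels of the 15 genes with the largest rise (left) and the 15 with the largest fall (right) in T2, on log2(rescaled TPM + 1). Points are the 3 T1 and 3 T2 libraries and black ticks the group means; T1 and T2 points do not overlap for any of these genes, which was part of the rule that chose them, and Hba-a1 has 1 T1 library apart from the other 2.

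B lineage genes rose in part. Of 20 listed, 9 were tested, 6 were called higher and none lower (median log2 0.75), against 3 and 3 in deposited TPM and 4 and 0 with the GC and length trend removed. Cd79a, a signalling chain of the B cell receptor, rose from 1.10, 1.05 and 1.59 to 5.47, 7.77 and 12.6 (log2 2.04, SE 0.25, adjusted p = 3.75e-05). Igll1, part of the surrogate light chain, rose from 1.34, 4.06 and 3.19 to 9.10, 13.4 and 11.1 (log2 1.72). The B lineage factor Ebf1 and the surface protein gene Ms4a1 were under 1 TPM in all 6 libraries, and the factor Pax5 was listed at 0. The summed level of the list was 127 to 150 rescaled TPM in T1 and 177 to 221 in T2.

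Lymphoid priming genes moved both ways, with 9 of 25 called higher and 8 lower (median log2 -0.04). Dntt, the terminal transferase that marks early lymphoid priming, fell from 716, 715 and 757 to 553, 511 and 505 (log2 -0.48, SE 0.07, adjusted p = 0.000146). Sox4, a factor needed for early B cell growth, fell from 22.3, 23.2 and 23.2 to 7.42, 7.22 and 6.19 (log2 -1.59). Dnajc9, a histone chaperone, fell by log2 0.98. Of 12 tested T, NK and innate lymphoid genes 3 rose and 4 fell. Nkg7, a cytotoxic granule protein, rose from 822, 794 and 812 to 1929, 2236 and 2053 (log2 1.35), and Cd7 from 5.02, 8.21 and 6.21 to 15.7, 27.5 and 20.7 (log2 1.56). Cd28 fell from 3.19, 4.16 and 3.85 to 1.65, 0.606 and 1.48 (log2 -1.11), and Cd3e and Il2rb were listed at 0 in all 6 libraries.

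Antigen presentation genes were called in both directions. Of 9 tested MHC class II genes 5 rose and 2 fell (median log2 0.45), and in deposited TPM 3 were higher and 5 lower. H2-Aa, an alpha chain, rose from 24.3, 28.9 and 29.7 to 83.2, 96.5 and 70.7 (log2 1.55, SE 0.13, adjusted p = 1.65e-06). Cd74, the invariant chain, rose from 42.9, 48.3 and 66.5 to 113, 194 and 179 (log2 1.59), H2-Eb1 by log2 1.12 and H2-Oa by 0.91, though the last was within log2 0.11 in deposited TPM. B2m, the shared light chain of class I, was the gene that gained most: 11810, 11440 and 11510 rescaled TPM in T1 and 40940, 42810 and 42430 in T2 (log2 1.86, SE 0.04, adjusted p = 3.12e-10), or 1.496 to 1.602% and 3.07 to 3.26% of deposited TPM. Its transcript has 860 bases, and with the GC and length trend removed the rise was log2 0.67.

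Dendritic cell genes were called higher in 5 and lower in 5 of 14 tested. Irf7, the interferon-induced factor of plasmacytoid cells, fell from 18.9, 21.1 and 25.4 to 8.88, 9.06 and 7.62 (log2 -1.25, SE 0.13, adjusted p = 1.46e-05), and Pld4, an endolysosomal nuclease, from 15.3, 17.5 and 21.5 to 7.68, 6.73 and 7.27 (log2 -1.20). Interferon response genes fell more often than they rose, with 11 of 26 lower and 3 higher, and 10 and 6 with the GC and length trend removed. Usp18, the brake on interferon signalling, fell from 54.2, 61.5 and 65.0 to 16.5, 17.4 and 17.8 (log2 -1.74). Ifitm3, a membrane antiviral protein, went the other way, from 1953, 1951 and 2002 to 4537, 5294 and 5150 (log2 1.34). Ifi27l2a rose by log2 0.99, and by none with the GC and length trend removed (log2 -0.01, adjusted p = 0.916).

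Myeloid priming genes were called in both directions, 11 of 29 higher and 9 lower (median log2 0.14), while 5 were higher and 21 lower in deposited TPM. The granule enzyme Mpo was level, at 42.6, 38.6 and 51.1 in T1 and 48.0, 43.1 and 41.8 in T2 (log2 0.01, adjusted p = 0.937). Plac8 rose from 3439, 3372 and 3385 to 7069, 7806 and 7867 (log2 1.16, SE 0.06, adjusted p = 1.82e-08), and Srgn, the core proteoglycan of secretory granules, from 1435, 1385 and 1448 to 3199, 3112 and 3145 (log2 1.15). Monocyte genes were among those that fell: Csf1r, the receptor of the macrophage growth factor, went from 5.79, 4.66 and 5.80 to 2.01, 1.65 and 2.35 (log2 -1.10), and the chemokine receptor Ccr2 from 2.68, 3.53 and 3.57 to 1.18, 1.15 and 0.923 (log2 -1.03). Of 12 tested monocyte and macrophage genes 3 fell and 1, C1qc, rose (log2 0.59, adjusted p = 0.0391), a call lost without T1 replicate 2, T2 replicate 2 or T2 replicate 3 (adjusted p = 0.167, 0.126 and 0.0692) and with the GC and length trend removed. The list summed to 763 to 859 rescaled TPM in T1 and 455 to 582 in T2, and without Lyz2 to 80.39 to 93.43 and 82.92 to 105.0, so Lyz2 carried the lower sum. Marco and Msr1 were listed at 0 throughout, and the part of such cells in the falls of single genes was not tested. In bulk libraries fewer cells of a type and less RNA per cell cannot be told apart.

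Among 14 tested mature neutrophil genes 5 rose and 6 fell, or 3 and 10 with the GC and length trend removed, and the summed level was 1142 to 1160 in T1 and 861 to 957 in T2. Without Lyz2, which the monocyte list shares, the sum was 394.7 to 459.2 in T1 and 480.7 to 512.4 in T2. Camp, the granule peptide cathelicidin, fell from 57.4, 66.5 and 58.6 to 23.9, 25.8 and 34.6 (log2 -1.10, SE 0.14, adjusted p = 4.7e-05). Lyz2, lysozyme, fell from 683, 709 and 765 to 372, 477 and 440 (log2 -0.75), and Ltf, lactoferrin, from 2.27 to 2.63 to 0 to 0.434 (log2 -1.51). The calls of Camp and Ltf were lost with all 30 libraries in 1 fit (adjusted p = 0.313 and 0.122). Retnlg rose from 0, 0.644 and 0 to 4.28, 3.53 and 4.87 (log2 2.14). Of 8 tested genes in the mast cell, basophil and eosinophil list 4 rose and 2 fell. The 2 that fell were the near-identical Mrgpra2 pair, whose expression in these cell types was not tested. The basophil protease Mcpt8 rose from 10.5, 11.9 and 12.1 to 56.1, 53.7 and 57.5 (log2 2.19, adjusted p = 1.73e-08), and Ifitm1 from 989, 1037 and 1040 to 4700, 5489 and 5251 (log2 2.33). Mcpt1, Mcpt2, Mcpt4, Tpsab1, Tpsb2, Prss34, Epx and Ear6 were listed at 0 in all 6 libraries, and Ifitm1 made up most of the list's sum of 1122 to 1169 in T1 and 4849 to 5630 in T2. The part of mast cells or basophils in these rises was not tested.

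Erythroid genes other than globin moved both ways: of 12 tested, 4 rose and 4 fell (median log2 0.13). With 6 globin genes the list had 18 tested, of which 8 rose and 4 fell. Car1, carbonic anhydrase of red cells, rose from 1.203, 4.381 and 2.48 to 10.2, 12.9 and 12.1 (log2 1.88, SE 0.27, adjusted p = 0.00014). Nfe2, a factor of red cell and platelet genes, fell from 132, 161 and 186 to 77.9, 83.6 and 77.0 (log2 -0.98). The master regulator Klf1 and the membrane genes Rhd, Rhag and Ank1 were under 1 TPM in all 6 libraries and Slc4a1 was listed at 0, and the list summed to 1126 to 1303 in T1 and 1602 to 1698 in T2, or 1083 to 1266 and 1089 to 1110 without globins. The part of red cell RNA in the globin rise was not tested. Of 11 tested megakaryocyte and platelet genes 3 rose and 4 fell. Pf4, platelet factor 4, rose from 9.73, 10.2 and 9.94 to 41.7, 36.2 and 32.1 (log2 1.77, adjusted p = 2.69e-07), and Selp, P-selectin, fell from 3.43, 3.36 and 2.97 to 1.308, 1.199 and 1.962 (log2 -0.78).

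Cytosolic ribosomal protein genes rose almost as a block. Of 73 tested, 72 were called higher and 1 lower, with a median of log2 1.51 and 64 at log2 1 or more. They were 65 and 5 in deposited TPM, and 71 and 1 with a median of 0.82 after the GC and length trend was removed. Rpl41 rose from 1991, 2035 and 2039 to 6578, 6584 and 7015 (log2 1.73, SE 0.05, adjusted p = 2.78e-09), Rpl37 from 474, 486 and 478 to 1742, 1802 and 1788 (log2 1.89), and Rps24 from 671, 649 and 631 to 2376, 2292 and 2396 (log2 1.85). Rpl3 was the exception, at 1903, 1894 and 1925 in T1 and 1522, 1558 and 1543 in T2 (log2 -0.31, adjusted p = 0.000654). Together these genes held 10.5 to 11.1% of deposited TPM in T1 and 15.5 to 16.8% in T2. Their processed copies elsewhere in the genome make single values uncertain.

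Nuclear genes of oxidative phosphorylation divided by length. Of 33 tested, 23 were higher and 6 lower (median log2 1.09), and 18 and 14 in deposited TPM. With the GC and length trend removed 21 were higher and 8 lower (median log2 0.49). All 14 under 1000 bases rose, with a median of log2 1.65, whereas of the 19 longer ones 9 rose and 6 fell, with a median of 0.17. Of all 961 tested genes under 1000 bases, 703 were called higher and 36 lower, with a median of log2 1.08. Ndufa4, a small subunit of cytochrome oxidase, rose from 2524, 2413 and 2286 to 9107, 9780 and 9309 (log2 1.97, SE 0.06, adjusted p = 2.47e-09), Cox7a2 from 391, 368 and 382 to 1436, 1550 and 1498 (log2 1.97), and Cox6c and Uqcrh by log2 1.91 and 1.75. Uqcrc1, a core subunit of complex III, and Atp5b, the catalytic subunit of ATP synthase, were at log2 -1.47 and -1.12, both past the test. These 2 were picked after their values were seen.

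Short transcripts in general were higher in T2. Genes were put in 10 bins of about equal size by transcript length. In the shortest bin (54 to 1064 bases, 1084 genes) the median was log2 1.01, with 72.0% called higher and 4.06% lower. The bin of 1985 to 2431 bases had a median of log2 -0.31 and the longest -0.02. Removing a trend on GC content and length brought the shortest bin to 0.24. In the same bin the T2 minus T1 median was log2 -0.46 in 24-month MPP4 and -0.15 in 3-month MPP3. Across genes, which are not independent replicates and share these libraries, Spearman's rho between the difference and length was -0.18, against 0.30 and 0.10 in those 2 tables. The part of library preparation or RNA quality in this trend was not tested.

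**Figure D2:**
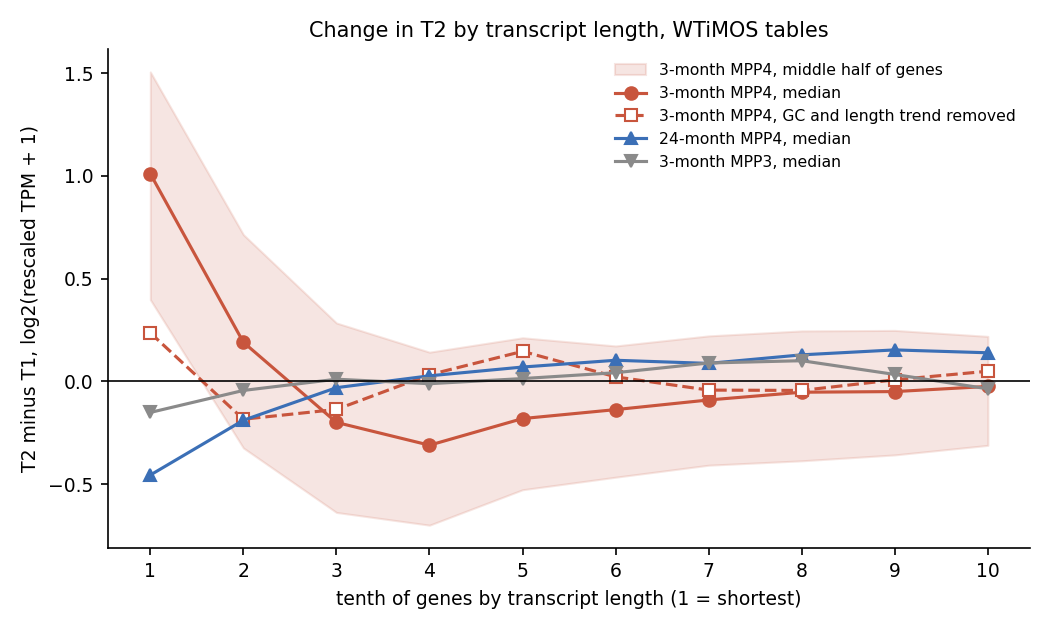
Median T2 minus T1 difference on log2(rescaled TPM + 1) in 10 bins of genes ordered by transcript length, shortest at 1, for 3-month MPP4 before and after removal of the GC and length trend, 24-month MPP4 and 3-month MPP3. The shaded band runs from the lower to the upper quartile of genes in 3-month MPP4; its shortest bin sits at log2 1.01, against -0.46 and -0.15 in the other 2 tables.

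Growth and division genes were lower more often than higher. Of 30 proliferation genes, 17 were called lower and 4 higher (median log2 -0.36), 29 and 0 in deposited TPM, and 16 and 3 with the GC and length trend removed. Aurka, the mitotic kinase, fell from 47.1, 43.6 and 52.1 to 15.3, 12.4 and 10.6 (log2 -1.83, SE 0.14, adjusted p = 6.87e-07), and Cdc20, which activates the anaphase-promoting complex, from 62.4, 81.3 and 90.4 to 21.35, 28.02 and 28.44 (log2 -1.55). Mcm3, a subunit of the replicative helicase, fell from 105, 104 and 102 to 63.7, 56.3 and 56.2 (log2 -0.81). Birc5, survivin, rose by log2 0.80 on rescaled values and was at log2 -0.03 in deposited TPM. Mki67 was not called (28.9, 28.9 and 26.7 in T1 and 29.3, 29.4 and 31.4 in T2).

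Myc target and ribosome biogenesis genes fell in 16 of 29 and rose in 2, or 13 and 4 with the GC and length trend removed. Eif5a, the translation factor that carries hypusine, fell from 1410, 1638 and 1980 to 378, 526 and 477 (log2 -1.86, SE 0.14, adjusted p = 1.79e-06). Pa2g4, a regulator of ribosome assembly, fell from 131, 133 and 128 to 45.3, 42.4 and 37.8 (log2 -1.62), and Nolc1, a nucleolar phosphoprotein, by log2 1.09. Npm1, nucleophosmin, rose from 1411, 1368 and 1327 to 3185, 3521 and 3504 (log2 1.31). The medians of the biogenesis list and of the ribosomal proteins thus had opposite signs, log2 -0.41 and 1.51. The lists differ in median length, 2483 and 937 bases, and with the GC and length trend removed the medians were -0.13 and 0.82. The part of length in this contrast was not tested.

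The p53 response genes were called lower in 11 of 19 and higher in 1 (median log2 -0.49), 16 and 0 in deposited TPM, and 9 and 1 with the GC and length trend removed. Beside Cdkn1a, Bax, which opens the mitochondrial membrane in apoptosis, fell from 150, 136 and 155 to 40.8, 52.9 and 41.4 (log2 -1.69, SE 0.12, adjusted p = 3.19e-07). Aen, an apoptotic nuclease, fell from 18.6, 20.7 and 23.9 to 5.67, 6.26 and 4.50 (log2 -1.77), and Btg2 from 72.4, 70.4 and 77.1 to 42.8, 41.8 and 40.0 (log2 -0.80). Trp53 itself fell by log2 0.49 (adjusted p = 0.00325). In the Bcl2 family 5 of 13 fell and 4 rose. Bid and Pmaip1, both death-promoting, fell by log2 0.67 and 1.16, while Bcl2a1d, a survival gene with near-identical copies, rose from 0.478, 0.516 and 1.37 to 3.04, 3.59 and 4.36 (log2 1.41) and was not called with the GC and length trend removed (log2 0.36, adjusted p = 0.177).

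Immediate early and heat shock genes fell in 12 of 25 and rose in 4 (median log2 -0.47). The cytosolic chaperone Hsp90ab1 fell from 1542, 1513 and 1525 to 676, 594 and 595 (log2 -1.30, SE 0.07, adjusted p = 4.21e-08), the mitochondrial chaperonin Hspd1 from 235, 229 and 245 to 114, 105 and 103 (log2 -1.13), and the stress-responsive factor Klf6 from 137, 137 and 147 to 61.5, 59.5 and 60.2 (log2 -1.20). Hspe1, the small co-chaperonin of Hspd1, rose from 465, 441 and 404 to 1426, 1463 and 1487 (log2 1.74). The partners differ in length, 774 bases for Hspe1 and 2423 for Hspd1, and were at log2 0.89 and -0.86 with the GC and length trend removed. Of 22 NF-kappa-B and inflammation genes 5 rose and 4 fell. The chemokine Ccl3 rose from 1240, 1222 and 1297 to 3486, 4150 and 4083 (log2 1.64, adjusted p = 1.13e-08), Ccl4 from 2616, 2533 and 2600 to 5637, 6407 and 6213 (log2 1.23), and Ccl5 by log2 1.41. Nfkb1, the p50 subunit, fell from 62.6, 66.6 and 70.6 to 33.9, 24.7 and 28.8 (log2 -1.18).

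In the plasma cell and secretory list all 16 tested genes were called, 6 higher and 10 lower. Jchain, which joins antibody multimers, rose from 49.7, 48.5 and 48.2 to 229, 270 and 244 (log2 2.32, SE 0.09, adjusted p = 5.86e-09), Sec11c, a subunit of the signal peptidase, from 539, 518 and 543 to 1136, 1401 and 1308 (log2 1.26), and the secreted chaperone Manf from 125 to 136 to 247 to 303 (log2 1.11). Pdia4, a disulphide isomerase, fell from 40.6, 45.9 and 56.9 to 13.6, 11.73 and 12.97 (log2 -1.81). The plasma cell factors Prdm1 and Irf4 were under 1 TPM in all 6 libraries. The part of plasma cells in the rise of Jchain was not tested.

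Stem cell genes were called higher in 7 and lower in 9 of 21, or 1 and 18 in deposited TPM and 5 and 5 with the GC and length trend removed. Nr4a1, a nuclear receptor linked to quiescence, fell from 114, 112 and 105 to 66.9, 52.4 and 67.0 (log2 -0.83, adjusted p = 8.29e-05), and the repressor Gfi1b from 7.72, 4.611 and 8.501 to 3.28, 2.94 and 2.71 (log2 -0.96). With the GC and length trend removed Nr4a1 and Gfi1b were at log2 -0.31 and -0.695. Meis1, a homeobox factor of stem cells, rose by log2 0.46 on rescaled values and fell by 0.36 in deposited TPM. Among lineage transcription factors 6 of 28 rose and 9 fell, and with the GC and length trend removed 8 and 7. Fli1 rose by log2 0.56, against -0.25 in deposited TPM, and Gfi1 fell by 0.65, against -0.22 (adjusted p = 0.152) with the GC and length trend removed. In the list of E proteins and Id factors 4 of 12 rose and 1 fell, Tcf4, Lyl1 and Tal1 by log2 0.68, 0.72 and 0.62, but these 3 stood at -0.12, -0.05 and -0.12 in deposited TPM.

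All 8 tested genes of calcium-binding S100 proteins rose, 4 were higher and 2 lower with the GC and length trend removed, and 5 and 2 in deposited TPM. They stand within a list of galectins, annexins and S100 genes in which 10 of 19 were higher and 4 lower. S100a11 rose from 378, 392 and 390 to 1566, 1840 and 1916 (log2 2.19, SE 0.08, adjusted p = 4.35e-09), and S100a10, S100a13 and S100a1 by log2 1.44, 1.52 and 1.38. These transcripts have 511 to 715 bases, and their rises were log2 1.11, 0.51, 0.68 and 0.50 with the GC and length trend removed. Stromal and endothelial genes were few, with 4 of 15 tested and 10 under 1 TPM in all 6 libraries. Emcn, endomucin, which is also made by stem and progenitor cells, rose from 13.2, 15.6 and 15.8 to 53.7, 62.0 and 58.9 (log2 1.90, adjusted p = 8.77e-08), while Pecam1 and Pdgfrb fell by log2 0.83 and 0.71. Col3a1 was listed at 0, and the list summed to 35.8 to 37.0 in T1 and 66.7 to 74.4 in T2.

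**Figure D3:**
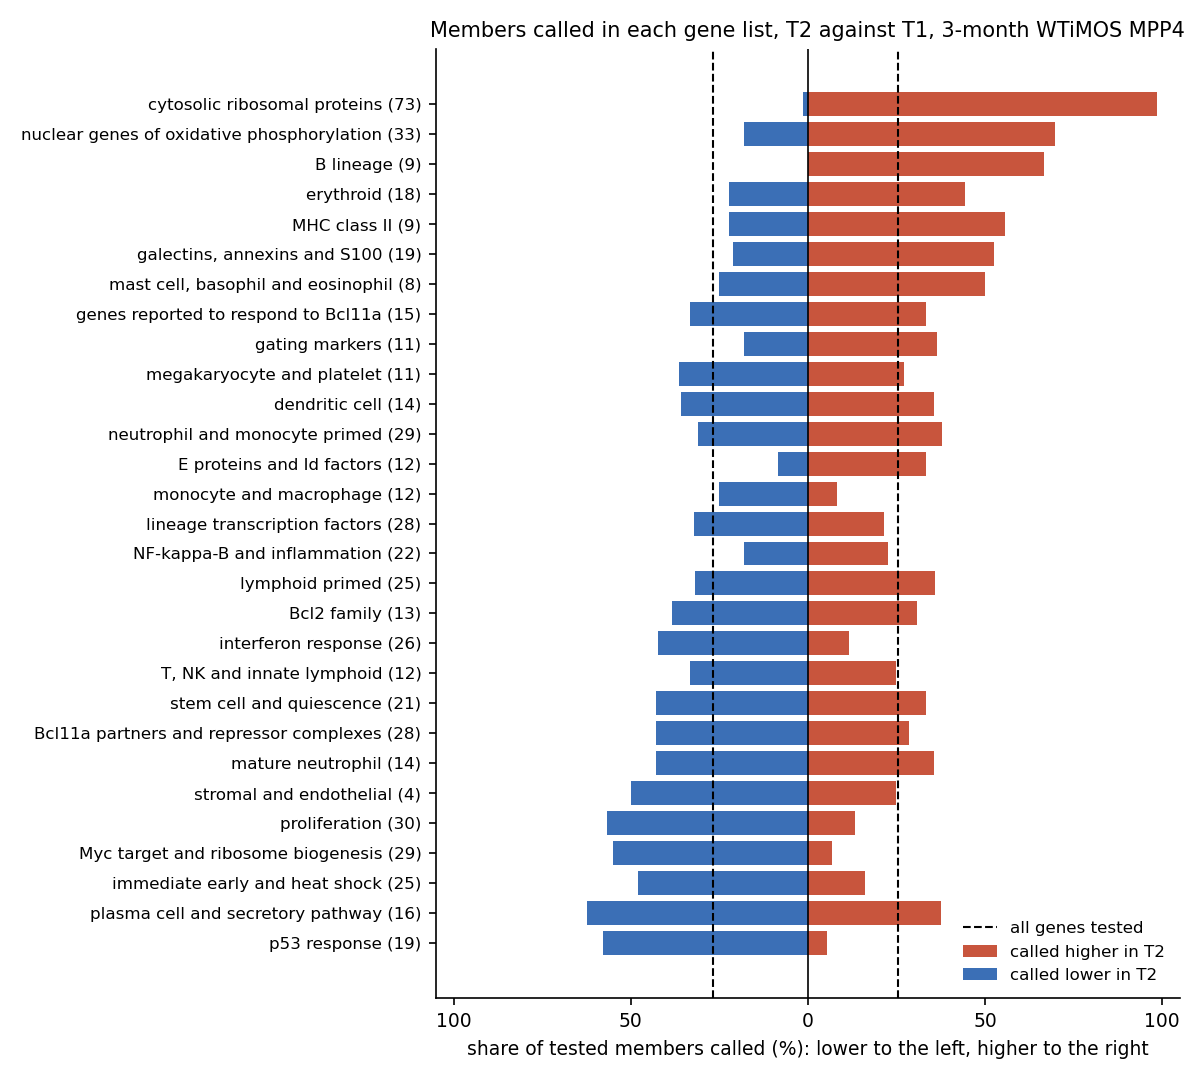
Share of tested members of each of the 29 gene lists called higher (right) or lower (left) in T2, with the number tested in parentheses and lists ordered by median change. Dashed lines mark the shares over all genes tested, 25.4% higher and 26.7% lower; ribosomal proteins stand at the top with 72 of 73 higher and the p53 list at the bottom with 11 of 19 lower.

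**Figure D4:**
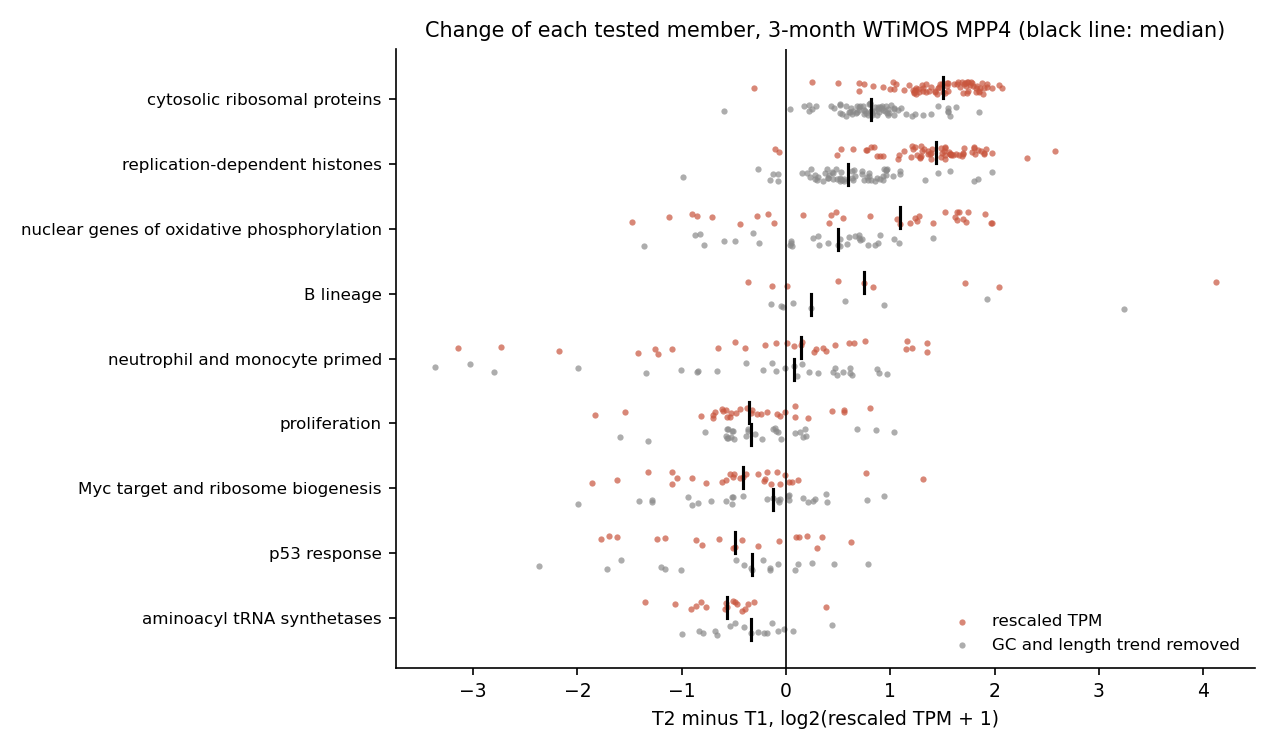
T2 minus T1 difference of every tested member of 9 gene groups on log2(rescaled TPM + 1), before (red) and after (grey) removal of the GC and length trend; black lines are medians. Ribosomal protein medians are 1.51 and 0.82, and those of the p53 list -0.49 and -0.33.

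The genes that gained or lost most deposited TPM were abundant ones. Ppia, cyclophilin A, rose from 5958, 5934 and 6032 rescaled TPM to 17000, 18480 and 19110 (log2 1.60, SE 0.05, adjusted p = 2.78e-09) and, with B2m, Wfdc17, Ndufa4, Ifitm1 and Rpl41, gained most. Among those that lost most, Eif5a and Hspa8 also fell on rescaled values, Hspa8, the constitutive heat shock cognate, by log2 0.73 (adjusted p = 7.91e-06), and the nuclear RNA Malat1 fell by 0.49. Eef1a1, elongation factor 1 alpha, fell by log2 0.23 (adjusted p = 0.015), a call lost without the first T1 library or the second T2 library (adjusted p = 0.0712 and 0.0521). Ubb, a polyubiquitin gene, and H3f3b, a replication-independent histone H3.3 gene, were not called on rescaled values (adjusted p = 0.6 and 0.46), so their loss depends on the scale used.

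The T2 minus T1 difference of young MPP4 was then set against that of 24-month MPP4 and of 3-month MPP3, each fitted within its own table because tables may have been normalised separately. Against 24-month MPP4, of 10713 genes tested in both, 2575 (24%) had a higher and 3050 (28.5%) a lower step in young MPP4 (52.5% in either direction), and against 3-month MPP3, of 10430, 2015 (19.3%) and 2267 (21.7%), or 41.1% together. The mean of Bcl11a was higher in T2 in all 3 tables. Its step was log2 1.53 in young MPP4 and 0.94 in old MPP4, a difference of 0.59 (SE 0.14, adjusted p = 0.00114), and 0.68 in MPP3, a difference of 0.85 (SE 0.15, adjusted p = 8.43e-05). In deposited TPM these differences were -0.66 and -0.07, so the order of the steps depends on the scale.

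The genes that fell most in young MPP4 compared unevenly with the other tables. For Mrgpra2b, Hp and F13a1 the steps in old MPP4 were log2 -3.997, -3.02 and -2.60 and in MPP3 -3.78, -2.95 and -2.69, and no difference from young MPP4 passed the test (differences of -0.20 to 0.28, SE 0.22 to 0.35). Other members of the 15 did differ by that test. Mrgpra2a, whose reads can be split with Mrgpra2b, differed by 0.54 from old MPP4 (adjusted p = 0.0323), but by -0.39 with the GC and length trend removed (adjusted p = 0.0933). Cd209a differed by -1.31 from old MPP4 and 1.44 from MPP3, Trat1 by 3.46 from old MPP4 and Tifab by 1.11 from MPP3. The added 1 limits the step of a gene near 0 in T2, so these differences depend on level. Mean Cd209a in young MPP4, old MPP4 and MPP3 was 11.1, 3.93 and 32.5 in T1 and 0, 0.0083 and 0.025 in T2. Tifab went from 7.21 to 0.66 in young MPP4 and from 133.9 to 11.96 in MPP3. Arpc1b, by contrast, had a step of log2 1.60 in old MPP4 and -0.34 in MPP3, so the difference of its step in young MPP4 was -4.46 (SE 0.22, adjusted p = 3.99e-13) from old MPP4 and -2.53 from MPP3. Trappc3, Tmed9, Vgll4, Csrp1, Ptbp1, Rest and Sae1 had steps of log2 0.37 to 1.27 in old MPP4 and -0.31 to 0.18 in MPP3, and their differences, young MPP4 minus the other table, were -4.09 to -2.21, each past the test. These genes were chosen for their fall in young MPP4, so the sign of the differences follows in part from the choice.

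**Figure D5:**
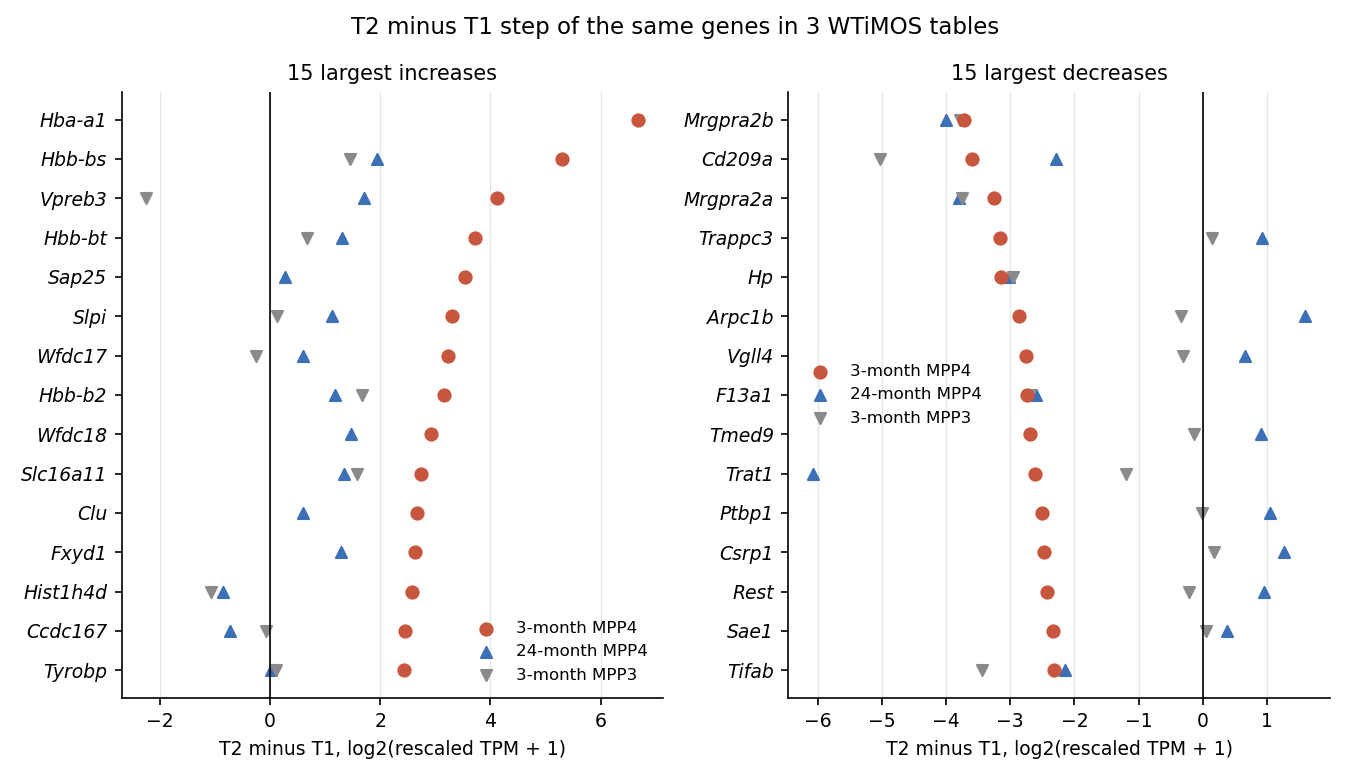
T2 minus T1 step on log2(rescaled TPM + 1) of the 15 genes with the largest rise (left) and the 15 with the largest fall (right) in 3-month MPP4, in that table (circles), 24-month MPP4 and 3-month MPP3 (triangles; none drawn where the gene was not tested). Differences between tables did not pass the test for Mrgpra2b, Hp and F13a1, and Arpc1b runs from log2 -2.86 to 1.60.

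Among genes that rose, Vpreb3 had steps of log2 4.12 in young MPP4, 1.70 in old MPP4 and -2.24 in MPP3, differences of 2.42 (SE 0.37, adjusted p = 2.35e-05) and 6.36 (SE 0.30, adjusted p = 1.51e-13). With the GC and length trend removed the first was 1.10 (adjusted p = 0.0196) and the second 5.31. Of the 9 B lineage genes tested in both MPP4 and MPP3 at 3 months, 8 had a higher step in MPP4 and none a lower one, with medians of log2 0.75 and -2.24. Against old MPP4 the count was 5 and 0. Cd52, a lymphocyte surface glycoprotein, rose from 343, 336 and 343 to 1471, 1627 and 1617 in young MPP4 (log2 2.20), against steps of log2 -1.32 in old MPP4 and -1.62 in MPP3. Ccl4 went from log2 1.23 in young to -2.06 in old MPP4. Cks2 and Snrpe, a cell cycle and a spliceosome gene with short transcripts, went from log2 1.61 and 1.90 to -1.34 and -0.91, and these differences of 2.94 and 2.81 were 1.22 and 0.91 with the GC and length trend removed in both tables. Fcer1g, the signalling chain of Fc receptors, had a step of log2 2.004 against -0.66 in MPP3. Vpreb3 was chosen for its rise and, like the other single genes of this paragraph, for a small adjusted p of a step difference. The size of these differences thus follows in part from the choice.

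Ribosomal protein genes had a higher step in young MPP4 for 72 of 73 against old MPP4, where their median was log2 -0.70, and for 72 of 73 against MPP3, where it was -0.33. Nuclear genes of oxidative phosphorylation did so for 24 and 23 of 33, with 6 and 7 lower. Median transcript lengths of these lists were 937 and 1079 bases. The shortest length bin as a whole had medians of log2 1.01 in young MPP4, -0.46 in old MPP4 and -0.15 in MPP3. List steps were not counted with the GC and length trend removed, and the part of length in these counts was not tested. Stem cell genes were lower in step in 9 of 20 and higher in 2 against each of the other tables. The 30 proliferation genes had medians of log2 -0.36, -0.58 and -0.27 in young MPP4, old MPP4 and MPP3, with 11 higher and 4 lower steps against old MPP4 and 5 and 7 against MPP3.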

How the data were processed

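RNA was measured by bulk RNA-seq of 6 libraries of flow-sorted mouse MPP4 cells, 3 labelled T1 and 3 labelled T2. The authors deposited 1 table of TPM per cell type and age, and per the labels' protocols the libraries came from a low-input cDNA kit. The submitters' processing notes name HISAT2, StringTie, featureCounts, DESeq2 and mm10, without versions or order. TPM is per transcript length and sums to 1000000 per library, so it keeps no depth and no count test was run.

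Each library was divided by its median ratio over genes above 1 TPM in all 6 libraries. Genes at 1 TPM or more in at least 3 libraries were kept, X and Y genes were left out, and log2(rescaled TPM + 1) was fitted in limma 3.58.1 (R 4.3.3, intensity trend, robust moderation, 4 residual degrees of freedom). The fold of a low gene is understated on this scale. P-values were adjusted over all genes tested by the Benjamini-Hochberg method, with a threshold of 0.05. Step differences were taken between tables fitted alone. The GC and length alternative removed a spline trend with 5 degrees of freedom from each library, with lengths and positions from GENCODE vM21 (GRCm38). On simulated data for the T2 against T1 comparison (10919 genes), 55.2% of genes changed by log2 0.5 and 100% of those changed by log2 1 were recovered, with 7.61% of calls false. For the step differences from 24-month MPP4 (10713 genes) and MPP3 (10430 genes), 91% and 79.1% were recovered at log2 1, with 9.09% and 11.84% of calls false. Each simulation changed only 200 genes, drawn from those averaging above 5 rescaled TPM, with independent noise. Values were simulated after rescaling and without a length trend. These shares therefore do not cover errors of the scale and are not error rates of the calls reported here.

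Named genes were Bcl11a, up to 15 called genes of largest change in each direction that did not overlap and had a mean of at least 5 rescaled TPM in the higher group, members of 29 lists by smallest p (up to 4 a list), 6 genes each of largest gain and loss of TPM, and up to 8 genes per step difference by smallest adjusted p. Members that did not pass are given with values only, and a few named genes are not reported here. Members and lists were chosen with earlier results of these data known. Alternatives were the deposited scale, a pseudocount of 0.1, no filter, X and Y genes kept, all 30 libraries in 1 fit, a replicate block, no trend and each library left out. The GC and length alternative for the step differences was chosen after seeing the data.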

Additional observations from a re-analysis of the deposited data

Results flagged for a closer look

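The T2 minus T1 step of several genes differed between young MPP4 and another table by the test of the difference itself. Apart from Bcl11a, these genes were picked by the smallest adjusted p of that test, so their differences follow in part from the choice. Against 24-month MPP4 the step was higher by log2 3.53 for Cd52, 3.3 for Ccl4, 2.94 for Cks2, 2.9 for Rps27l, 2.85 for Ifitm1, 2.81 for Snrpe, 2.76 for Rpl35a and 0.59 for Bcl11a. With the GC and length trend removed these were 1.99 for Cd52, 1.79 for Ccl4, 1.22 for Cks2, 0.98 for Rps27l, 1.65 for Ifitm1, 0.91 for Snrpe, 1.05 for Rpl35a and 0.64 for Bcl11a, which stood at -0.66 in deposited TPM. Against 3-month MPP3 it was higher by log2 6.36 for Vpreb3, 3.82 for Cd52, 2.67 for Fcer1g, 2.08 for B2m, 2.06 for Rpl32, 2.06 for Rpl24 and 0.85 for Bcl11a. With the trend removed these were 5.31 for Vpreb3, 2.61 for Cd52, 1.58 for Fcer1g, 0.75 for B2m, 1.17 for Rpl32, 0.94 for Rpl24 and 0.81 for Bcl11a, which stood at -0.07 in deposited TPM.

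RNA of 4 Y-linked genes, outside the genes tested, averaged 110.6 deposited TPM over the T2 libraries, while every T1 library had 0 listed.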

How the results depend on the processing

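The scale decided the counts. On deposited TPM 8907 genes were called, 940 higher and 7967 lower, against 5686 on rescaled values, of which 3856 were called in the same direction. The step differences became 9342 (833 higher, 8509 lower) against 24-month MPP4 and 7500 (770 higher, 6730 lower) against MPP3. Under every other alternative the counts stayed within 1.5 times, with 4701 to 5590 calls when 1 library was left out, and 4056 of the 5686 calls were shared after removal of the GC and length trend. On deposited TPM the log2 change was -0.36 for Meis1, -0.0901 for C1qc, -0.25 for Fli1, -0.0326 for Birc5, -0.12 for Tcf4, -0.0541 for Lyl1, -0.12 for Tal1 and -0.78 for H3f3b, the opposite sign to the rescaled value. With the GC and length trend removed Ifi27l2a was at -0.0107. With 1 library left out in turn, Ubb ran from -0.2212 to 0.0604, the last without T2 replicate 1. With all 30 libraries in 1 fit Camp and Ltf were no longer called (adjusted p = 0.313 and 0.122). The cause was not tested.

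Replicate numbers did not pair the libraries: deviations of same-numbered libraries correlated at 0.136, -0.051 and -0.014. With the replicate block 5888 genes were called, 2854 higher and 3034 lower, and the step differences gave 5433 and 4454. Trat1 was not called under the block (adjusted p = 0.0891). Read depth is unknown, so the precision of low levels cannot be given.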

Other observations

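Gene families outside the lists were looked at after values had been seen, and are given as counts. Of 64 replication-dependent histone genes, whose RNAs end without a poly(A) tail, 62 were called higher in T2 and none lower (median log2 1.44), and 45 and 2 with the GC and length trend removed. Hist1h2ao, for example, rose from 1046, 1085 and 1004 rescaled TPM to 2766, 2873 and 3404 (log2 1.52, adjusted p = 3.61e-08 by limma). Reads can be split among near-identical histone copies. Against 24-month MPP4 the step was higher for 60 of 64, where the median was log2 -0.90. These genes have a median length of 536.5 bases, and the step was not counted with the trend removed. Mitochondrial ribosomal proteins rose in 56 of 77 and fell in 7, but were 30 higher and 31 lower in deposited TPM.

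MHC class I heavy chains did not follow their light chain B2m on rescaled values: of 13 tested 8 fell and none rose (median log2 -0.52). With the GC and length trend removed 5 were lower and 1 higher (median log2 -0.35), and the part of length in the contrast was not tested. H2-Q8, H2-Q9 and H2-T9 had no value with the trend removed, and H2-Q8 and H2-T9 were among those that fell on rescaled values. H2-D1 fell from 1023, 1115 and 1283 to 581, 587 and 591 (log2 -0.95, adjusted p = 2.59e-06 by limma), and H2-T23 from 255, 268 and 274 to 154, 144 and 155 (log2 -0.81). Near-identical copies of the Qa region summed to 201 to 220 in T1 and 238 to 252 in T2, so falls of single Qa genes are uncertain. Aminoacyl tRNA synthetases, which charge tRNAs, were called lower in 16 of 17 (median log2 -0.57), or 9 with the GC and length trend removed, and Iars was the 1 called higher (log2 0.39).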
